A study of Mus musculus with 9 samples.

Results

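The genes described here are 9 interferon-inducible GTPases of the mouse, namely the guanylate-binding proteins Gbp2, Gbp3, Gbp5, Gbp6 and Gbp7 and the immunity-related GTPases Igtp, Irgm1, Irgm2 and Iigp1. They were taken from the count table by matching Ensembl identifiers to these symbols, and all 9 were found among 47937 genes. The RNA came from cultured mouse embryonic fibroblasts (MEFs) of 3 genotypes with 3 libraries each. WT was the parental line E1c, which carries a conditional allele of the histone methyltransferase gene Eset1. S1S2 was derived from it by disruption of Suv39h1 together with Suv39h2, and G9Gl by disruption of G9a (Ehmt2) together with Glp (Ehmt1), so all 3 genotypes share the conditional Eset1 allele. All 4 disrupted genes encode enzymes that methylate lysine 9 of histone H3 (H3K9). Per the study's methods each mutant line is a single CRISPR/Cas9 clone chosen by absence of the proteins on western blots, so genotype and clone cannot be told apart. The comparison asks how transcription responds to the loss of each enzyme pair, here for a family of genes that interferons switch on.

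Interferons signal through receptor-bound Jak kinases to STAT and IRF transcription factors, which bind the interferon-stimulated response element (ISRE) or the gamma-activated sequence (GAS) near the start of their target genes. Guanylate-binding proteins (Gbp) and immunity-related GTPases (Irg) are among the most strongly induced targets of interferon gamma in mouse fibroblasts and macrophages, where they assemble on vacuoles that hold intracellular pathogens. Within the Irg family, Irgm1, Irgm2 and Igtp (Irgm3) are regulators that protect the cell's own membranes and carry a methionine in the nucleotide-binding loop, whereas effectors such as Iigp1 (Irga6) and Tgtp1 (Irgb6) carry a lysine there and load onto vacuoles.

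That loop is printed because it separates regulators from effectors within the family. The codons below come from the longest reading frame of the GENCODE M21 transcripts of GRCm38. Capitals mark the codon that follows the conserved glycine, ATG for methionine and AAA or AAG for lysine. The stretch was the same in all 3 regulators and carried a lysine codon in the 5 guanylate-binding proteins and in the effector Tgtp1, which is not one of the 9.
Irgm1: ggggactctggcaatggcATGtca
Irgm2: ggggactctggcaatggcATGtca
Igtp: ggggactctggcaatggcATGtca
Tgtp1: ggggaaacaggcgcagggAAGtcc
Gbp2: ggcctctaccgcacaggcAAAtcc
Gbp3: ggtttatatcgtacagggAAGtcc
Gbp5: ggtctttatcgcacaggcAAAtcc
Gbp6: ggattgtaccgtacagggAAGtcc
Gbp7: ggactataccgtacgggaAAAtcc

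The start windows of the members are shown because the letters of both elements occur in them. RefSeq windows of build GRCm38.p6, from 250 bases before to 50 bases after a start, were at hand for 7 of the 9 members, and Gbp6 and Iigp1 had no entry. The letters searched on both strands were GAAANNGAAA for the ISRE and TTCNNNGAA for the GAS. The ISRE letters occurred in 7 of 7 member genes against 3.99% of all genes with a window, although only 1 of the 2 windows of Gbp3 held them. The GAS letters occurred in 4 of 7, which were Gbp5, Gbp7, Igtp and Irgm2, against 9.55% of all genes. A match describes letters in a window and not a site in use. Each stretch below reads 5′ to 3′ along the gene's strand, and capitals mark the matches.
Gbp2, chr3:142620592-142620625, plus strand: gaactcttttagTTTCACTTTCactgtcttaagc
Gbp3, chr3:142559987-142560026, plus strand: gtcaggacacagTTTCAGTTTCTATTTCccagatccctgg
Gbp7, chr3:142530218-142530304, plus strand: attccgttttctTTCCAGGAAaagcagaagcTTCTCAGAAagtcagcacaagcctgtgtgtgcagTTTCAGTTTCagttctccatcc
Irgm1, chr11:48871423-48871462, minus strand: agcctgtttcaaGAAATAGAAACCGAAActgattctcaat
Igtp, chr11:58199499-58199543, plus strand: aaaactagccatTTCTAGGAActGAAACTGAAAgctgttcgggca
Irgm2, chr11:58214890-58214934, plus strand: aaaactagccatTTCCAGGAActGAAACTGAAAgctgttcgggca

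The Igtp and Irgm2 stretches were identical at 44 of 45 bases, with the GAS letters ahead of the ISRE letters in both. Irgm1 and Gbp3 each held a pair of ISRE matches that overlap each other and no GAS letters. Gbp2 held a single ISRE match that began 59 bases before the start, and its window had no GAS letters. In no member did GAS letters overlap ISRE letters. The ISRE matches nearest to a start were those of Irgm1, which began 30 and 24 bases before it, and that of Gbp5 was the farthest, at 165 bases.

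**Figure D1:**
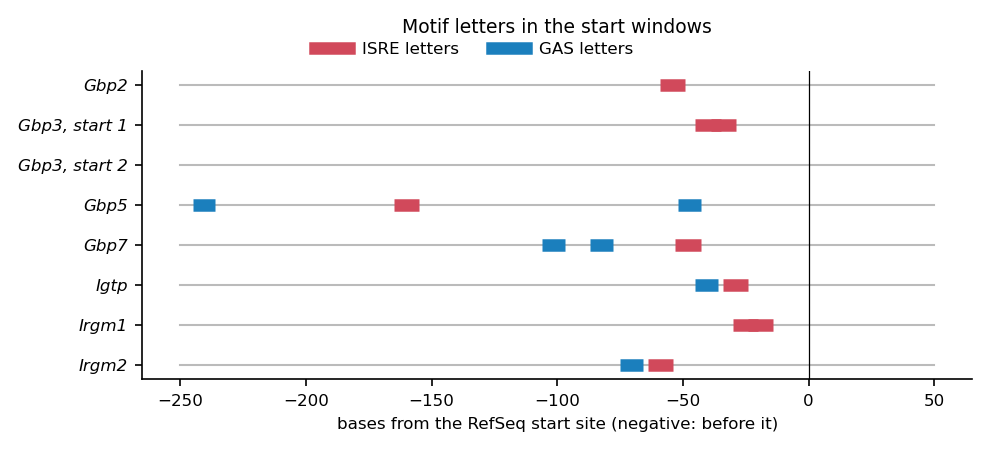
Positions of the ISRE letters (red) and the GAS letters (blue) in the RefSeq start windows of 7 member genes, with the distance from the start site in bases on the x axis and 1 line per window. Gbp3 has 2 windows, of which only 1 holds ISRE letters, and Gbp5, Gbp7, Igtp and Irgm2 hold both kinds.

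The libraries held between 21319778 and 32157623 counts, and 3 counts in a library correspond to 0.0922 to 0.141 CPM, the unit of gene counts scaled to library size. The S1S2 cells had a Suv39h1 transcript level of 41.9 ± 3.14 CPM (SD, n = 3) against 108 ± 4.59 in WT, and Suv39h2 was at 55.2 ± 2.34 against 33.9 ± 0.67. The G9Gl cells had Ehmt2 at 54.2 ± 2.82 against 125 ± 9.63 CPM and Ehmt1 at 50.2 ± 1.62 against 103 ± 1.78. Remaining transcript does not check clones that were selected on protein. All 8 fibroblast markers examined were detected. Of the 7 leukocyte markers, Adgre1 and Cd3e had no count in any library and Ptprc had none in WT and S1S2 and 0.0908 ± 0.0344 CPM in G9Gl. Csf1r, the receptor that macrophages depend on, was at 0.0320 ± 0.00116 CPM in WT, 0.0121 ± 0.0210 in S1S2 and 0.242 ± 0.128 in G9Gl. Itgam had counts only in G9Gl-1, where there were 3, and Lyz2 had at most 4 counts in any library. Cd68, a lysosomal protein gene, was the remaining marker, at 4.36 ± 0.0788 CPM in WT, 3.53 ± 0.450 in S1S2 and 4.40 ± 0.142 in G9Gl.

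In G9Gl cells the transcripts of all 9 GTPases rose, from 2.01-fold for Irgm1 to 21.9-fold for Gbp7 among the members with over 3 counts in WT, and more for Gbp5 and Iigp1. In S1S2 cells Gbp3, Igtp, Gbp5 and Iigp1 rose, and the other 5 were not called. Of these 5, Irgm1 and Gbp2 met the adjusted p limit but changed less than 2-fold. The direct comparison put 8 of 9 higher in G9Gl than in S1S2 cells, and Irgm1 was the exception. A gene was called when the adjusted p of edgeR's quasi-likelihood test was at most 0.01 and the fold change at least 2. By this rule 4 of 9 members were higher in S1S2 against WT, where 4.66% of the 15540 genes tested were called higher and 4.34% lower. Against WT, 9 of 9 members were higher in G9Gl, where 6.77% of all genes were called higher and 3.40% lower. Gbp5 and Gbp6 among them passed the filter on low counts only through G9Gl, as set out below. Between the mutants, 8 of 9 members were higher in G9Gl, where 7.97% of all genes were called higher and 5.08% lower. With the adjusted p limit at 0.05 and no fold cutoff, 8 of 9 members were higher in S1S2 against WT, as were 25.3% of all genes.

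The 9 transcripts together amounted to 59.6, 60.6 and 62.5 CPM in the WT libraries, 118, 119 and 133 CPM in S1S2 and 280, 223 and 227 CPM in G9Gl. The genotypes did not overlap in this sum. Its largest part in each genotype was Irgm1, with means of 43.4, 77.3 and 87.1 CPM in WT, S1S2 and G9Gl, and Irgm1 was not called in S1S2. The median log2 fold change of the members was 1.37 in S1S2 against WT, 3.36 in G9Gl against WT and 2.10 in G9Gl against S1S2, beside medians over all genes of -0.0032, -0.0067 and 0.0002. All 9 members passed the filter on low counts, but Gbp5, Gbp6 and Iigp1 were under 10 counts in each WT library and passed through the mutants, which had to differ from WT for that. For Gbp5 and Gbp6 it was the G9Gl libraries that carried them past it, and neither was tested in a fit of WT and S1S2 alone. Their calls in G9Gl, against WT and against S1S2, are therefore no support. The G9Gl median of 3.36 is the value of Gbp6. Of the 7 members kept without the G9Gl libraries, 7 were called in G9Gl against WT and 3 in S1S2 against WT. Iigp1 is among the 3 and then passes only through S1S2, so its S1S2 call is no support either. The 2 comparisons against WT share the WT libraries. The RNA is from bulk cultures, so a change in the share of responding cells and a change in RNA per cell cannot be told apart.

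**Figure D2:**
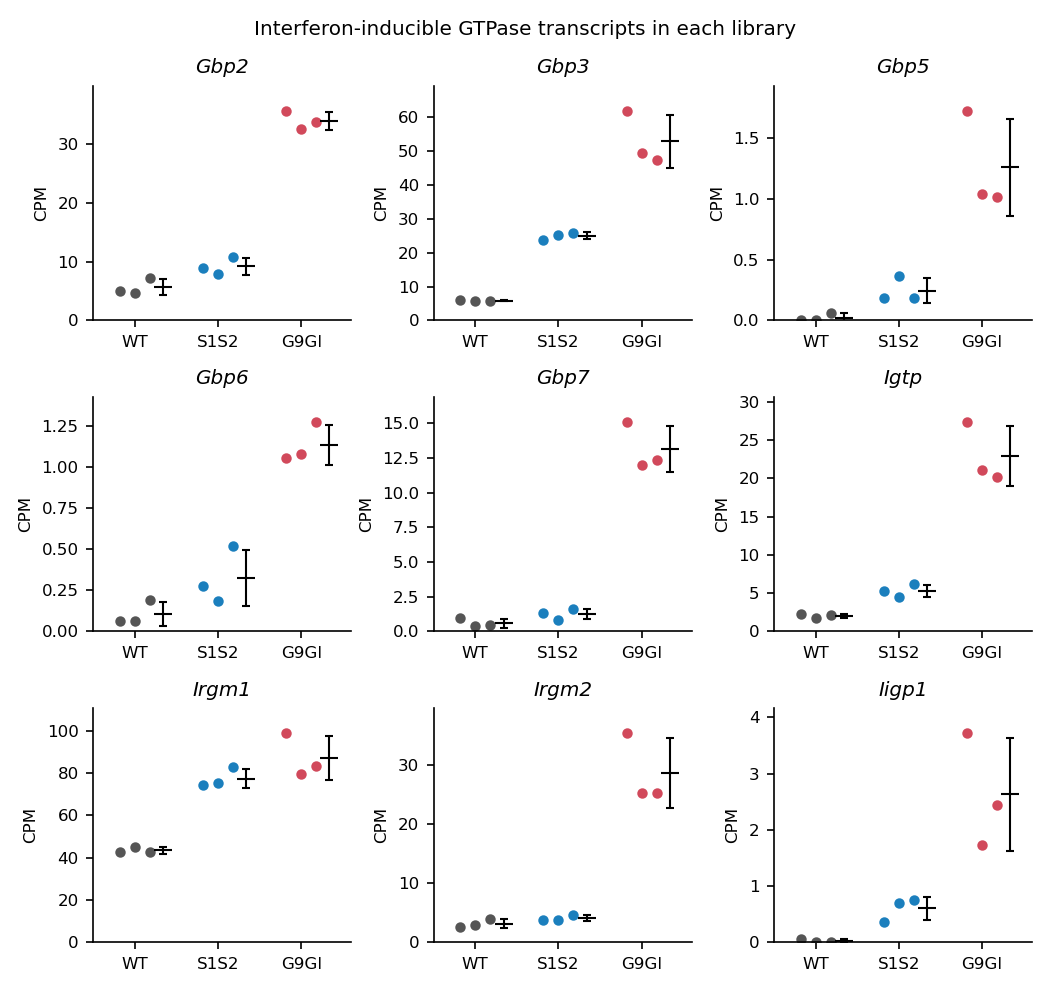
CPM of each member (y axis, from 0, scaled per gene) in the 3 libraries of WT, S1S2 and G9Gl (points), with the mean and SD beside them. The G9Gl libraries lie above both other genotypes for every member but Irgm1, whose G9Gl and S1S2 libraries overlap between 79.3 and 82.6 CPM.

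The regulators of the Irg family differed among themselves. Irgm1, which is needed for resistance to several intracellular bacteria, was well expressed in WT cells, with 42.6, 45.2 and 42.5 CPM. It stood at 74.4, 75.03 and 82.6 CPM in S1S2 and at 98.8, 79.3 and 83.3 CPM in G9Gl. Both mutants thus lay above WT without overlap, but they overlapped each other. The log2 fold change against WT was 0.83 (SE 0.056 with an adjusted p of 3.71e-08) in S1S2, below the fold cutoff, and 1.00 (SE 0.100, adjusted p = 2.24e-09) in G9Gl, at the cutoff. The G9Gl call was lost by fold size alone without WT-1 (0.99), WT-3 (0.99) or G9Gl-1 (0.91). The G9Gl level exceeded the S1S2 level by 0.17 on the log2 scale (SE 0.107, adjusted p = 0.0434), which was not called.

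Igtp, the regulator also known as Irgm3, had 2.24, 1.75 and 2.13 CPM in WT, 5.24, 4.55 and 6.16 in S1S2 and 27.4, 21.1 and 20.1 in G9Gl. All 3 genotypes were apart, in the order WT, S1S2, G9Gl. Its transcript rose 2.58-fold in S1S2 (log2 1.37, SE 0.162, adjusted p = 5.24e-06) and 11.2-fold in G9Gl (log2 3.48, SE 0.172, adjusted p = 2.33e-12). Irgm2, a regulator that acts at the Golgi and on vacuoles, had 2.55, 2.87 and 3.99 CPM in WT, 3.86, 3.82 and 4.70 in S1S2 and 35.4, 25.3 and 25.2 in G9Gl. WT and S1S2 overlapped for Irgm2, and G9Gl was far above both. For Irgm2 the S1S2 difference was 0.39 on the log2 scale (SE 0.212, adjusted p = 0.116), and the transcript rose 9.11-fold in G9Gl (log2 3.19, SE 0.249, adjusted p = 1.84e-11). The annotated spans of Igtp and Irgm2 overlap on chromosome 11, and 7.80% of the 75-base words in Igtp exons also occur in those of Irgm2, so some reads may be shared between them.

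Iigp1 is the effector among the members, a GTPase that coats the vacuole of Toxoplasma gondii, and it lies on chromosome 18. It was close to absent from WT, with 2, 0 and 0 counts, and had 8, 19 and 16 counts in S1S2 and 106, 48 and 75 in G9Gl. In CPM these were 0.368, 0.692 and 0.752 in S1S2 and 3.72, 1.72 and 2.45 in G9Gl, with no overlap between the genotypes. The ratio of summed counts to WT was 28.6 in S1S2 (95% counting interval 7.45 to 244) and 123 in G9Gl (33.8 to 1026). Both calls held in the edgeR fit (adjusted p = 1.48e-04 and 4.29e-08), and the rise from S1S2 to G9Gl was 4.30-fold (adjusted p = 5.32e-05). The intervals are wide because WT holds 2 counts in all, and they cover counting error only. Both counts were in WT-1, and without it the rise of Iigp1 in S1S2 was at least 12.5-fold and that in G9Gl at least 53.8-fold by the floor of 3 counts over the genotype.

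Gbp3 belongs to the guanylate-binding proteins encoded on chromosome 3. It had 6.03, 5.65 and 5.86 CPM in WT, 23.9, 25.4 and 25.8 in S1S2 and 61.8, 49.4 and 47.4 in G9Gl. The genotypes were apart, and the spread within WT and S1S2 was small. Gbp3 rose 4.28-fold in S1S2 (log2 2.10, SE 0.043, adjusted p = 3.02e-11) and 9.03-fold in G9Gl (log2 3.17, SE 0.122, adjusted p = 3.49e-14). The difference between the mutants was 2.11-fold (log2 1.08, adjusted p = 7.22e-09), and without G9Gl-1 it fell below the fold cutoff (log2 0.95).

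Gbp2, which targets pathogen vacuoles and the membranes of bacteria released from them, had 5.07, 4.69 and 7.28 CPM in WT, 8.87, 7.90 and 10.7 in S1S2 and 35.5, 32.6 and 33.6 in G9Gl. The lowest S1S2 library stood just above the highest WT library, and G9Gl was well apart. The change was 1.60-fold in S1S2 (log2 0.68, SE 0.231, adjusted p = 7.13e-04), below the fold cutoff, and Gbp2 rose 5.96-fold in G9Gl (log2 2.58, SE 0.196, adjusted p = 1.43e-11). Gbp2 lies in the same cluster as Gbp3, which was called in S1S2.

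Gbp7, linked to oxidative and autophagic defence in macrophages, had a low level in WT. It had 0.953, 0.363 and 0.451 CPM in WT, 1.33, 0.838 and 1.60 in S1S2 and 15.1, 12.02 and 12.3 in G9Gl. WT and S1S2 overlapped, and the S1S2 difference (log2 1.04, SE 0.457, adjusted p = 0.0162) was not called. This rested on the setting, since Gbp7 was called in S1S2 by DESeq2 (adjusted p = 0.00107) and in other edgeR fits. These were the fit with no filter on low counts (3.94e-04) and that with a replicate block (log2 1.06, adjusted p = 0.00533). The others were those without WT-1 (log2 1.57, adjusted p = 0.00147) and without S1S2-2 (log2 1.29, adjusted p = 0.00607). Its adjusted p ran from 3.94e-04 to 0.0804 over 13 alternatives. Gbp7 rose 21.9-fold in G9Gl against WT (log2 4.45, SE 0.390, adjusted p = 2.86e-11) and 10.7-fold against S1S2 (log2 3.42, adjusted p = 3.16e-10), the largest difference of any member between the mutants.

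Gbp5, which promotes inflammasome activation, had 0, 0 and 2 counts in WT, 4, 10 and 4 in S1S2 and 49, 29 and 31 in G9Gl. The genotypes did not overlap, at levels of 0.184 to 0.364 CPM in S1S2 and 1.01 to 1.72 CPM in G9Gl. The ratio of summed counts to WT was 11.98 in S1S2 (95% counting interval 2.87 to 106) and 58.8 in G9Gl (15.9 to 491). The S1S2 call for Gbp5 had an adjusted p of 0.00445 in edgeR's test, which became 0.0219 without WT-1, 0.0169 without WT-2 and 0.0359 without S1S2-2, and it ran from 3.19e-04 to 0.0359 over the 11 alternatives in which Gbp5 was tested. It was not tested with only WT and S1S2 in the fit, nor with at least 10 counts required in every library. Both WT counts were in WT-3, and without it the rise of Gbp5 in S1S2 was at least 5.34-fold and that in G9Gl at least 26.2-fold by the floor of 3 counts over the genotype. The G9Gl call had an adjusted p of 7.11e-07.

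Gbp6 is the member whose reads are least its own, since 67.3% of its 75-base words also occur in other genes, mostly in Gm43302 and in Gbp10, so its values are uncertain. It lies on chromosome 5 and had 2, 2 and 6 counts in WT, 6, 5 and 11 in S1S2 and 30, 30 and 39 in G9Gl. Only the G9Gl libraries stood apart. The S1S2 difference (log2 1.52, SE 0.479, adjusted p = 0.0353) was not called, and Gbp6 rose 10.3-fold in G9Gl (log2 3.36, SE 0.333, adjusted p = 5.03e-06). Without WT-3, which held 6 of the WT counts, the log2 fold change was 4.06 in G9Gl and 2.22 in S1S2, the latter still not called (adjusted p = 0.0129, with 0.0129 to 0.204 over the 11 alternatives in which it was tested).

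Levels per kilobase of exon allow the members to be ranked against each other. In WT, Irgm1 led with 7.48 CPM per kb, followed by Gbp2 with 2.26, Gbp3 with 1.79, Igtp with 1.01 and Irgm2 with 0.851, and the other 4 members were at 0.105 or less. In S1S2, Irgm1 was at 13.3 CPM per kb and Gbp3 at 7.67, with Gbp2 at 3.64 behind them. In G9Gl, Gbp3 at 16.2 ± 2.40, Irgm1 at 14.995 ± 1.77 and Gbp2 at 13.5 ± 0.60 CPM per kb came to within their spread of each neighbour. Igtp followed with 11.3 ± 1.94 and Irgm2 with 7.75 ± 1.58 CPM per kb. Gbp3 and Gbp2 differed by more than their SD, and the order Gbp3, Irgm1, Gbp2 held within each of the 3 G9Gl libraries. In each WT library Irgm1 was the highest member.

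The members were correlated across the libraries. Over the 9 libraries, the pairwise Pearson correlation of log2 CPM ran from 0.712 for Irgm1 with Irgm2 to 0.984, with a median of 0.926 over 36 pairs, and the points share library and genotype. Within genotypes, S1S2-3 was the highest S1S2 library for 8 of 9 members and G9Gl-1 the highest G9Gl library for 8 of 9. In WT no library led in this way, with WT-1 and WT-3 each highest for 4 members and WT-2 for 1. The genes with the profile most like the members' mean over the 9 libraries were Oas1a, Trim12c, Xaf1, Tap1 and Ccdc91, each with a Pearson correlation of 0.996 to 0.997. Oas1a, a sensor enzyme for double-stranded RNA, went from 0.127 ± 0.0637 CPM in WT to 1.88 ± 0.284 in S1S2 and 32.4 ± 5.69 in G9Gl.

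Of other interferon-inducible GTPase genes and their relatives, 19 were in the table and 14 were tested. The list holds Gbp and Irg genes and also Gvin1 and Gm4070, which belong to the very large inducible GTPases. In G9Gl against WT 13 of the 14 rose, beside 6.77% of all genes called higher, and in S1S2 against WT 3 did, beside 4.66%, namely Gbp4 (log2 3.40), Gbp9 (3.22) and Gm4951. Of the 14, 7 would not have passed the filter on low counts without the G9Gl libraries, which had to be higher for that, so their calls in G9Gl are no support. These were Gbp10, Tgtp1, Tgtp2, Gm12185, Gm5431, Gm4951 and F830016B08Rik, and of the other 7 genes 6 were called in G9Gl and 2 in S1S2. The 2 were Gbp4 and Gbp9. Gbp4 was under 10 counts in each WT library and without G9Gl passes only through S1S2, so its S1S2 call is no support either. Gbp9 had 10, 6 and 14 counts in WT. The median log2 fold change was 5.61 over 14 genes in G9Gl and 0.31 over the 13 genes with over 3 counts in either genotype in S1S2, with genes that had no WT count set at their bound. Tgtp1, an effector that loads early onto vacuoles, was at 0.159 ± 0.052 CPM in WT, 0.348 ± 0.107 in S1S2 and 25.6 ± 4.95 in G9Gl. Tgtp1 and Tgtp2 are close copies with 77.2% and 81.4% of their words shared, so their separate values are uncertain. The same holds for Gvin1 and Gm4070, which share 98.3% and 96.7% of their words, mostly with each other, and for Gbp10 with 77.8%, all of them counted among the 13. Ifi47, or Irgd, was at 1.41 ± 0.206 CPM in WT, 1.18 ± 0.565 in S1S2 and 21.9 ± 0.98 in G9Gl. Gm5431 had no count in WT or S1S2 and 1.63 ± 0.0786 CPM in G9Gl cells, which is at least 51.0-fold higher than WT by the floor of 3 counts over the genotype. Gm4951 had no count in WT and 10 in S1S2, at least 4.44-fold higher, and its S1S2 call (adjusted p = 0.00664) was lost without any of the 3 WT libraries, S1S2-2 or S1S2-3, with adjusted p from 6.88e-04 to 0.0273 over the alternatives. Irgq, a distant relative in the Irg family, was the gene that was not called, with 21.1 ± 1.75 CPM in WT and 20.1 ± 0.642 in G9Gl.

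**Figure D3:**
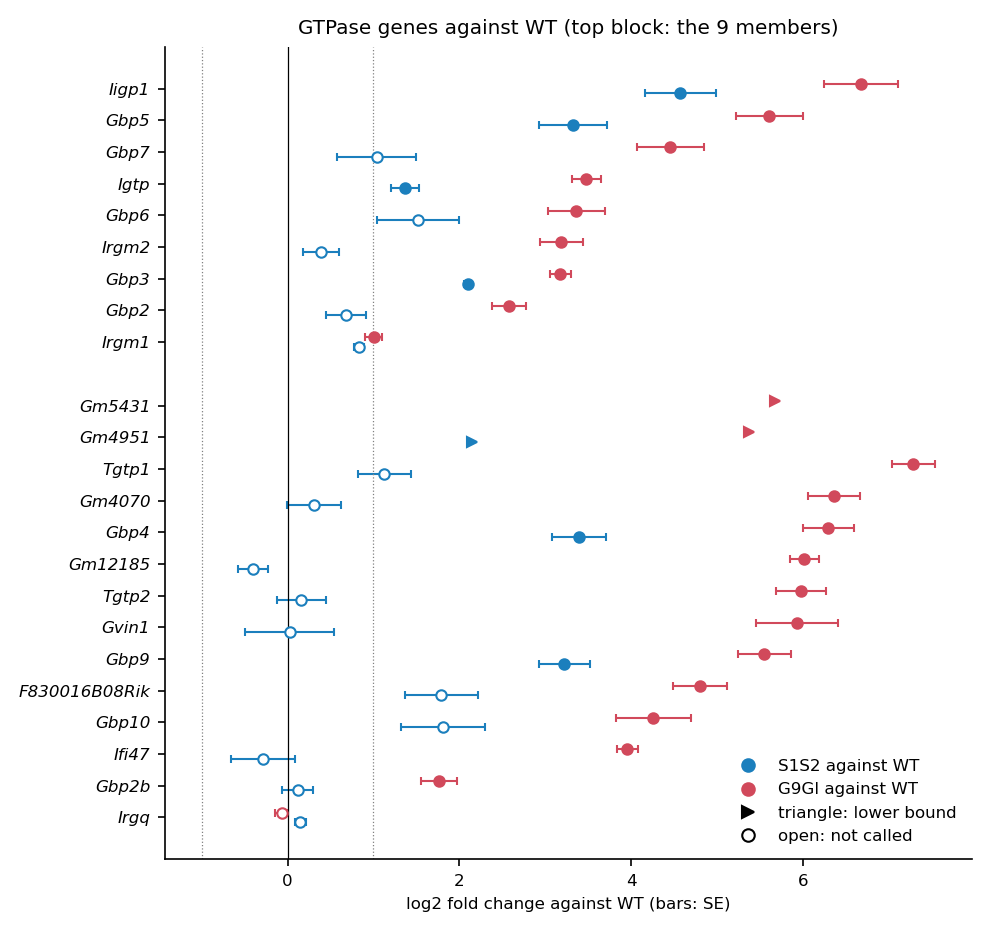
Log2 fold change against WT (x axis, bars are SE) of the 9 members (top) and of 14 other GTPase genes (bottom) in S1S2 (blue) and G9Gl (red). Filled points were called, open points were not, triangles are lower bounds for genes with no WT count, and dotted lines mark a 2-fold change. All 9 members and 13 of 14 other genes were called in G9Gl, against 4 and 3 in S1S2. Of these genes, 2 members and 7 others passed the filter on low counts only through G9Gl. Without them 7 of 7 members and 6 of 7 others were called in G9Gl, against 3 and 2 in S1S2.

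The members lie in 5 clusters of the mouse genome, and positions are given in GRCm38 from GENCODE M21. On chromosome 3 the order is Gbp5 (ENSMUSG00000105504, chr3:142493978-142522344), Gbp7 (ENSMUSG00000040253, chr3:142530342-142550149), Gbp3 (ENSMUSG00000028268, chr3:142560026-142573209) and Gbp2 (ENSMUSG00000028270, chr3:142620602-142638008), all on the plus strand. Gbp6 (ENSMUSG00000104713, chr5:105270702-105293698, minus strand) belongs to the other Gbp cluster. Irgm1 (ENSMUSG00000046879, chr11:48861968-48871683, minus strand) lies apart from Igtp (ENSMUSG00000078853, chr11:58199556-58207591) and Irgm2 (ENSMUSG00000069874, chr11:58199618-58222782), which share a strand and overlap. Iigp1 (ENSMUSG00000054072, chr18:60376027-60392634) lies on the plus strand. The 2 nearest tested genes on each side of each cluster, 20 in all, were set beside them. Of these 20, 3 were called higher in G9Gl against WT, where 6.77% of all tested genes were. They were Bmpr1b (log2 2.95), Slc27a6 (3.06, at 0.653 CPM in G9Gl) and Trim7 (1.58), and the others lay between -0.19 and 0.73. In S1S2 against WT, 2 were called higher, Trim7 (1.61) and Gm12184 (1.08), beside 4.66% of all tested genes, and 1 lower, Bmpr1b (-2.77), beside 4.34%. With so few flanking genes, nothing is read from these counts about the flanks. The 4 genes that flank Igtp and Irgm2 had log2 fold changes between -0.18 and 0.0087 in S1S2 and between -0.020 and 0.13 in G9Gl. On chromosome 3, where all 4 members rose in G9Gl, 1 of the 4 flanking genes, Bmpr1b, was also called higher there, and Pdlim5, Kyat3 and Gtf2b were not called.

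**Figure D4:**
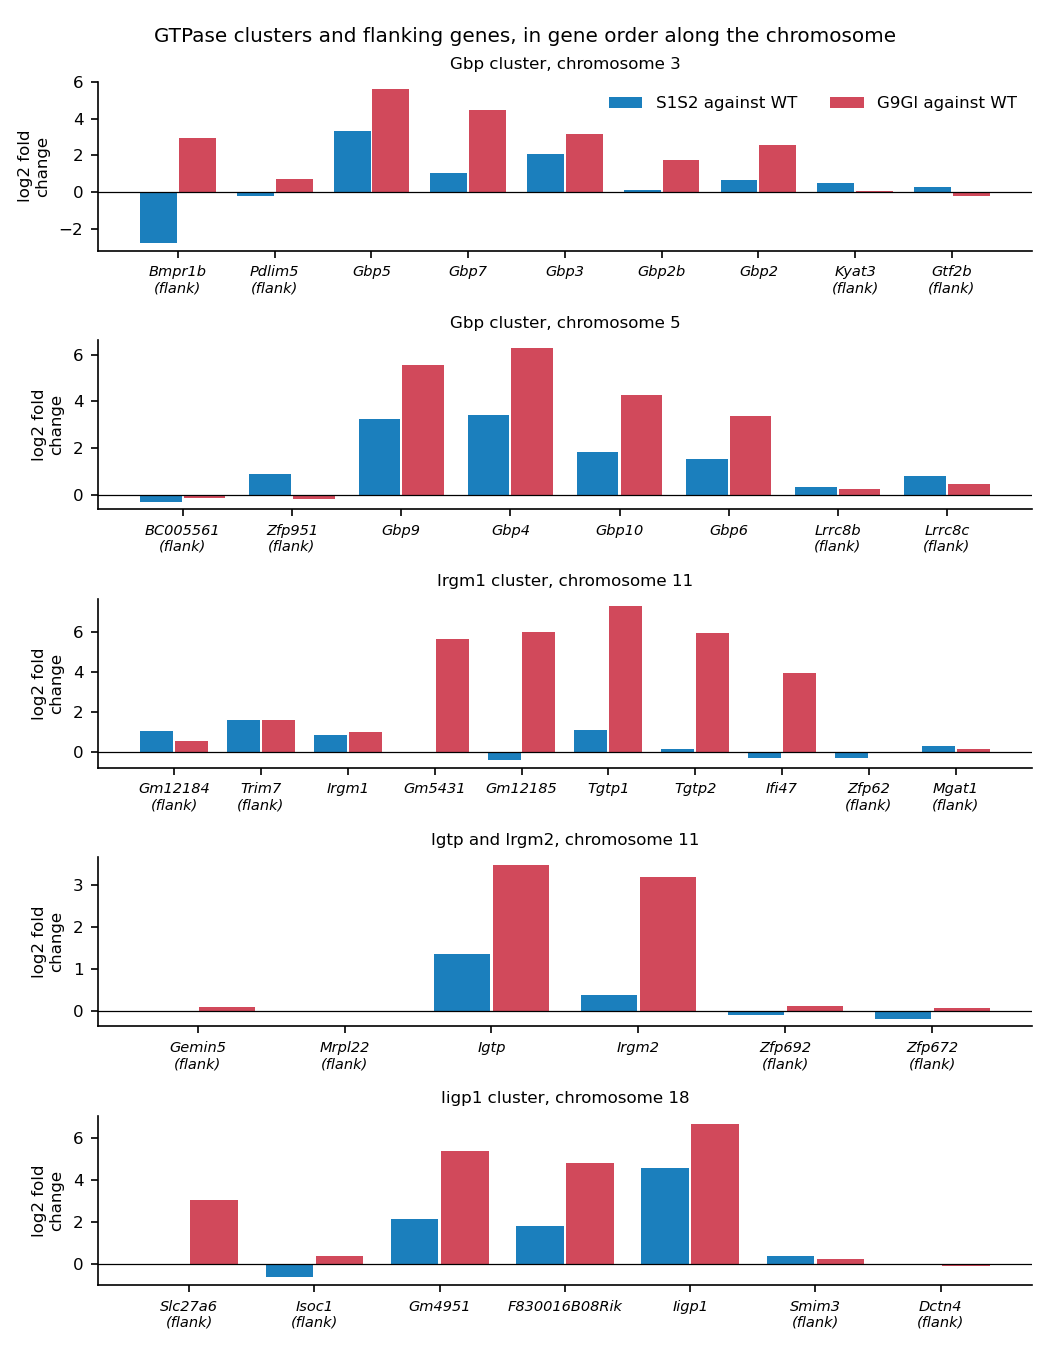
Log2 fold change against WT of tested genes in the 5 clusters and of the 2 nearest tested genes on each side (flank), in chromosomal order, with S1S2 in blue and G9Gl in red. Genes with no WT count are drawn at their lower bound, and no bar is drawn where neither genotype passed 3 counts or where a flanking gene had no count in a genotype. In G9Gl the flanking Bmpr1b, Trim7 and Slc27a6 were called, and in S1S2 Bmpr1b, Trim7 and Gm12184.

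The pathway that induces these genes was examined from ligand to transcription factor. The ligand genes Ifnb1 and Ifng had no count in any library, which allows up to 0.0922 to 0.141 CPM per library. Of 14 tested genes for receptors, kinases, transcription factors and their inhibitors, 1 was called higher in S1S2 against WT and 2 in G9Gl. These counts stand beside 4.66% and 6.77% of all tested genes called higher, and are too small to set the pathway apart from other genes. Irf7, the master regulator of type I interferon genes, rose in S1S2 (log2 2.26) and in G9Gl (3.65), from 1.77 ± 0.444 CPM in WT to 8.56 ± 1.43 and 22.5 ± 5.64. Irf9, the DNA-binding subunit of the ISRE-binding complex ISGF3, rose in G9Gl (log2 1.799) from 17.1 ± 1.23 to 59.7 ± 8.13 CPM. Between the mutants, Irf7 and Irf9 were called higher in G9Gl.

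Genes of the interferon response other than GTPases were counted in a type I and a type II list. Of 12 type I response genes, 10 rose in S1S2, beside 4.66% of all genes, and 11 in G9Gl, beside 6.77%, with median log2 fold changes of 2.38 and 2.51. Between the mutants, where 7.97% of all genes were called higher in G9Gl and 5.08% lower, 2 of these were higher, Usp18 (log2 2.63) and Irf7 (1.40), and 3 were lower, the antiviral genes Rsad2 (-2.29), Ifit1 (-1.08) and Ifit2 (-1.01). Without G9Gl-2, Ifit1 (-0.99) and Ifit2 (-0.97) missed the fold cutoff, as did Ifit2 without S1S2-3 (-0.98), with no filter on low counts (-0.997) and with at least 10 counts in every library (-0.998). Irf7 is also counted in the pathway list above. Of 7 tested genes of a type II response list, 3 rose in S1S2 and 7 in G9Gl, set against the same 4.66% and 6.77%, with medians of 1.03 and 2.18. The antigen transporter gene Tap1 is among the 3 (log2 1.05) and missed the fold cutoff without S1S2-3 (0.99). Nlrc5, the activator of MHC class I genes, went from 0.896 ± 0.0367 CPM in WT to 4.62 ± 0.32 in S1S2 and 71.7 ± 6.48 in G9Gl. Between the mutants 5 of the 7 were higher in G9Gl, including Tap1 (log2 1.13, and 0.98 without G9Gl-1, which is not a call), and the chemokine gene Cxcl10 was lower (log2 -1.85), at 133 ± 3.49 CPM in S1S2 and 36.9 ± 1.22 in G9Gl. The median difference between the mutants was 2.10 for the GTPase members, 1.61 for the type II list and 0.37 for the type I list. The first includes 2 members that passed the filter on low counts only through G9Gl, and the other lists hold no such gene.

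**Figure D5:**
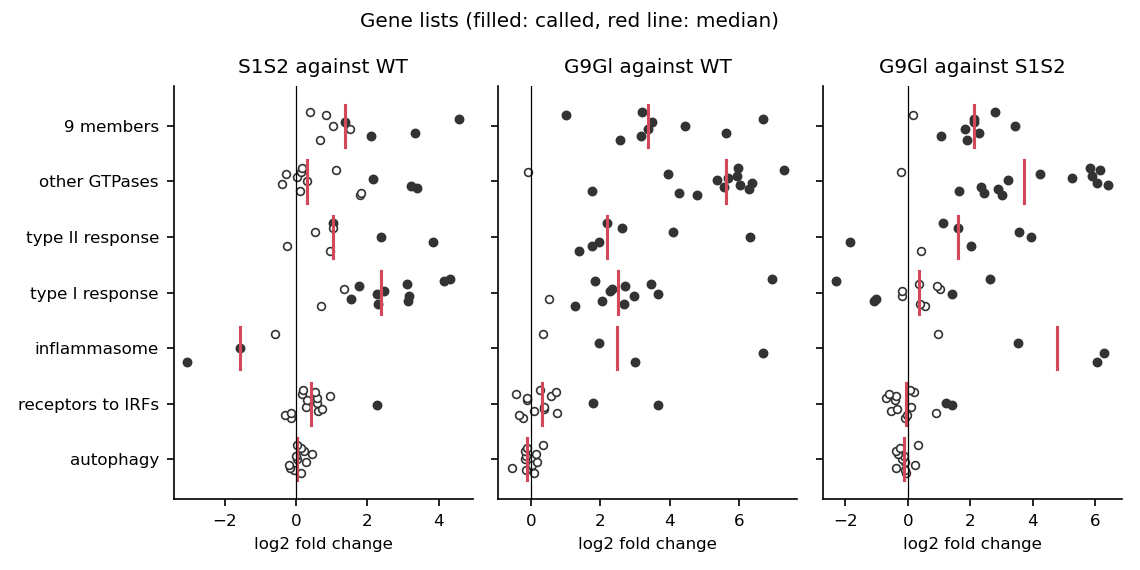
Log2 fold change (x axis) of the genes of 7 lists in each mutant against WT and between the mutants, with called genes filled, others open and the list median in red. Genes with no count in a genotype are drawn at their lower bound, and genes with at most 3 counts in both genotypes are left out. In the direct comparison the GTPase medians are 2.10 and 3.71, and that of the type I list is 0.37. The GTPase medians include 2 of the 9 members and 7 of the 14 other genes that passed the filter on low counts only through G9Gl. The type I list holds no such gene.

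Partners of the GTPases were examined last. The ubiquitin-like conjugation system of autophagy guides Gbp and Irg proteins to vacuoles. Of 11 genes, 10 of that system and the cargo receptor gene Sqstm1, none was called in any of the 3 comparisons by edgeR. DESeq2 called none either, and at an unadjusted p under 0.05 in edgeR's test 6, 8 and 7 of the 11 passed in S1S2 against WT, in G9Gl against WT and between the mutants. At that same limit 54.6%, 52.4% and 57.8% of all tested genes passed, and nothing is read from these counts about the list. The largest absolute log2 fold changes of the list were 0.44, 0.55 and 0.39. Atg3, an enzyme of the conjugation system, was the member of the list with the largest change in G9Gl, at 55.6 ± 3.89 CPM against 81.4 ± 3.01 in WT. Of the inflammasome genes that Gbp proteins act upon, 4 were tested. Casp4 (caspase-11), the receptor for bacterial lipopolysaccharide, was at 7.12 ± 1.46 CPM in WT, fell to 2.43 ± 0.509 in S1S2 and rose to 27.6 ± 2.45 in G9Gl. Aim2, a sensor of cytosolic DNA, was at 3.10 ± 0.862 CPM in WT, fell to 0.365 ± 0.0725 in S1S2 and rose to 24.7 ± 1.70 in G9Gl. Casp1 had no count in WT or S1S2 and 3.29 ± 0.155 CPM in G9Gl cells, which is at least 103-fold higher than WT, and it passed the filter on low counts only through G9Gl. Pycard, the adaptor that joins Aim2 to caspase-1, had no count in any library.

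Markers of cell types also moved between the genotypes. The summed level of the 8 fibroblast markers was 9790 to 11288 CPM in WT, 7364 to 7426 in S1S2 and 7714 to 8567 in G9Gl. In S1S2, 5 of the 8 were called lower, beside 4.34% of all tested genes. They were Col3a1 (log2 -3.01), Col1a2 (-2.60), Pdgfra (-2.04), Thy1 (-1.29) and Pdgfrb (-1.14), and Vim was at 0.72, below the cutoff. In G9Gl, Pdgfra (-1.85) and Pdgfrb (-1.34) were called lower, beside 3.40% of all tested genes, and Thy1 (2.94) higher, beside 6.77%. The 7 leukocyte markers summed to 4.34 to 4.46 CPM in WT, 3.24 to 4.09 in S1S2 and 4.67 to 4.96 in G9Gl, nearly all of it Cd68, which was not called in any comparison. The 4 endothelial markers summed to 0.123 to 0.193 CPM in WT, 1.55 to 1.70 in S1S2 and 0.79 to 2.35 in G9Gl. Kdr, a receptor of endothelial cells, was called higher in S1S2, at 1.22 ± 0.180 CPM, where WT had 2 counts in 1 library and none in the others. Cdh5, the cadherin of endothelial junctions, was called higher in G9Gl at 1.01 ± 0.503 CPM, at least 31.6-fold higher than WT, which had no count. It passed the filter on low counts only through G9Gl. Pecam1 and Tek were too low to be tested. Pecam1 was at 0.128 CPM in WT, 0.324 in S1S2 and 0.0924 in G9Gl, and Tek at 0.0110, 0.0121 and 0.298. The 4 epithelial markers summed to 0.297 to 0.548, 4.66 to 5.55 and 0.294 to 0.395 CPM, and Krt8, a keratin of simple epithelia, made up most of the S1S2 sum. Epcam, Cdh1 and Krt18 were too low to be tested. Epcam was at 0.266 CPM in WT and 0.197 in S1S2, and Cdh1 at 0.0415 and 0.0121. Krt18 had 8 counts in S1S2-2, 3 in S1S2-3 and none in any other library. Krt8 was called higher in S1S2 (log2 5.03), at 4.67 ± 0.512 CPM against 0.138 ± 0.0489 in WT, and was at 0.221 ± 0.0812 in G9Gl. Kdr and Krt8 were under 10 counts in each WT and G9Gl library, so they passed the filter on low counts only through S1S2. The calls of Cdh5, Kdr and Krt8 are therefore no support for a change of cell type. The part of these differences in the GTPase values was not tested.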

How the data were processed

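Total RNA of 9 MEF cultures was sequenced, 3 each of WT, S1S2 and G9Gl, and groups were taken from the sample labels. The deposited values are raw counts per Ensembl gene, whole numbers without normalization. Per the study's methods, the authors prepared stranded libraries and trimmed paired-end reads of 75 bases (cutadapt). They aligned to GRCm38 with STAR (2.5.2b in the submitters' processing notes) under the settings that TEtranscripts recommends, and counted with TEtranscripts. How reads that match several genes were handled is not spelled out there. Such reads may be divided among near-identical genes. Whether counting used strand is not given in the sources used here.

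Genes were named from GENCODE M21. Of 47937 genes, 15540 passed filterByExpr and were tested in R 4.3.3 with edgeR 4.0.16 (TMM, glmQLFit, glmQLFTest), with all 9 libraries in a single fit and Benjamini-Hochberg adjustment over all genes tested. CPM are scaled by TMM factors, and SE come from log2 CPM with a prior count of 2. A floor of 3 counts and counting intervals cover counting error only, because without molecular identifiers reads do not stand for separate molecules. Replicates are taken as cultures of 1 line each, so p-values measure the spread between cultures. The fit was tested on simulated data. Alternatives included DESeq2 1.42.0, other scalings and filters, glmTreat, a replicate block and the omission of each library in turn.

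The members and lists were chosen with earlier results of these data known. Named genes are the members, the other GTPases, the pathway, partner and response lists, up to 4 genes per list by size of change among called genes, and the 5 genes with the profile most like the members. Flanking genes, Pycard, Atg3 and the marker genes were named after their values were seen. Some genes of the pathway and marker lists are not reported here, and those lists were counted without them.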

Additional observations from a re-analysis of the deposited data

Results flagged for a closer look

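Casp4, Aim2, Thy1 and Bmpr1b stood out because they changed in opposite directions in the 2 mutants against the shared WT libraries. They were picked for that pattern, so the difference between the mutants is a description here and was not tested on other libraries. Casp4 had a log2 fold change of -1.56 in S1S2 against WT and 1.96 in G9Gl against WT, a difference of 3.52. Aim2 had -3.05 and 3.00, a difference of 6.05. The fibroblast marker Thy1 had -1.29 and 2.94, a difference of 4.23. Bmpr1b, which lies before the Gbp cluster on chromosome 3 with Pdlim5 in between, had -2.77 and 2.95, a difference of 5.72. No GTPase member changed in opposite directions.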

How the results depend on the processing

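The main counts of called members were 4 in S1S2 against WT, 9 in G9Gl against WT and 8 in G9Gl against S1S2. A minimum of 10 counts in every library gave 2 for S1S2 against WT, 6 for G9Gl against WT and 5 for G9Gl against S1S2, because Gbp5, Gbp6 and Iigp1 were then not tested. The adjusted p limit of 0.05 with no fold cutoff gave 8 for S1S2 against WT, and glmTreat against a fold change of 2 gave 2, 8 and 6 for the 3 comparisons. Leaving out a library gave 3 to 4, 8 to 9 and 7 to 8 calls for the 3 comparisons. With the replicate block the counts were 5, 9 and 8, the fifth being Gbp7 in S1S2 against WT (log2 1.06, adjusted p = 0.00533), and DESeq2 also gave 5, 9 and 8. A fit of only the genotypes compared gave 3, 9 and 8, with Gbp5 and Gbp6 not tested in S1S2 against WT. The labels give only a number, and whether it pairs the libraries was not settled. Mean correlations of deviations between libraries of the same number were 0.048, 0.043 and -0.054 for the 3 comparisons. The libraries closest to their own number were 2 of 3 in S1S2 against WT, 2 of 3 in G9Gl against WT and 0 of 3 between the mutants. Of 340 member fold changes recomputed, 327 kept their direction and side of the threshold, 5 passed it newly, 8 no longer passed and none reversed. Irgm1 in G9Gl against WT was at 0.98 without a composition factor. Depth limits Gbp5, Gbp6 and Iigp1 in WT.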
